A study of Mus musculus with 7 samples.

Results

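The genes described here are the MHC class I pathway of the mouse: the heavy chains H2-D1 and H2-K1, their light chain B2m, the peptide loading proteins Tap1, Tap2 and Tapbp, the immunoproteasome subunits Psmb8, Psmb9 and Psmb10, and the class I transactivator Nlrc5. All probe sets that the platform annotation gives to 1 of these 10 genes were taken, which made 27 of the 45101 probe sets on the array. A further 3 probe sets carry several symbols that include a member and are not named. After a filter on dim signals, 18 of the 27 were tested among 27022 probe sets, and the other 9 are given as signals only. The samples were 5 libraries of D3 embryonic stem cells without calreticulin (Calr, CRT in the sample titles) and 2 libraries of wild type D3 cells, an established mouse line, each profiled on 1 Affymetrix Mouse 430 2.0 array. Each library was RNA from several cultures harvested together and combined. Whether the knockout cells were 1 clone or several is not given in the labels. The p-values therefore cover the spread between these libraries only, and precision is limited by how few arrays there are.

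MHC class I molecules carry short peptides from inside the cell to its surface, where T cells and natural killer cells read them. The proteasome cuts the peptides, the Tap1 and Tap2 transporter moves them into the endoplasmic reticulum, and a loading complex of tapasin (Tapbp), calreticulin and Pdia3 holds the heavy chain and B2m until a peptide fits. Calreticulin, the deleted gene, is therefore a chaperone of this pathway. Interferon raises the transcription of the whole pathway, and embryonic stem cells are known for low class I levels.

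Signals are the deposited MAS5 values, scaled within each array. Differences are on the scale log2(signal + 20.2) and were tested with limma, a linear model fitted across all tested probe sets, with Benjamini-Hochberg adjusted p-values. Calr itself was low in all 5 knockout libraries. Calr signal was 857.8, 1055.2, 1064.3, 577.4 and 1005.5 in knockout libraries 1 to 5, against 12460 and 10840 in wild type libraries 1 and 2. The groups did not overlap, and the log2 difference, knockout minus wild type, was -3.68 (SE 0.30, limma adjusted p = 0.00595, and -3.84 without knockout libraries 2 and 3). Knockout libraries 2 and 3 stood apart from the rest: they correlated at r = 0.985 across tested probe sets with each other, but at 0.843 to 0.902 with the other 5, which correlated at 0.920 to 0.972 among themselves. Of 17 fibroblast and feeder markers with a probe set, 10 were highest in these 2 libraries, beside 26.9% of all tested probe sets, and 1 was lowest, beside 20.9%. None was listed at 0, and the summed signal ran from 2436 to 9359 in knockout libraries and from 5341 to 6411 in wild type libraries. The extracellular matrix gene Dcn had 552.4 and 555.1 in knockout libraries 2 and 3, no more than 14.5 in the remaining knockout libraries, and 55.6 and 27.5 in wild type. The log2 ratio of 3' to 5' Actb control signal was 0.79 and 0.89 in these 2 libraries, between 1.53 and 1.94 in the other knockout libraries, and 1.46 and 2.08 in wild type. The differences below are therefore given with and without knockout libraries 2 and 3. All 13 pluripotency markers were measured, with summed signals of 86255 to 122673 in knockout libraries and 92935 to 108895 in wild type libraries. Of these, 6 were lowest in knockout libraries 2 and 3, beside 20.9% of all tested probe sets, and 3 were highest there, beside 26.9%. Among the 6 was the stem cell factor Pou5f1, with 4891.3 and 4687.1 there, 8770.3 or more in the other knockout libraries, and 11726.4 and 10184.1 in wild type. The 3 were Tdgf1, Fgf4 and Tcl1. Tdgf1 had 14287.3 and 15929.4 there, 11866.5 or less in the other knockout libraries, and 10710.6 and 10997.2 in wild type. The summed signal of 14 MHC class II and leukocyte markers was 1547 to 2015 in knockout libraries and 1463 to 1846 in wild type libraries. Of the 14, 2 were highest in knockout libraries 2 and 3, beside 26.9% of all tested probe sets, and 1, H2-Eb1, was lowest there, beside 20.9%. Among the 2 was the macrophage gene Cd68, with 823.4 and 824.5 there, 472.8 or less in the other knockout libraries, and 361.1 and 450.6 in wild type. In the same list, Adgre1 had 90.0 and 140.5 there and Lyz2 76.3 and 149.9, neither of them highest in both.

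The promoters of the heavy chains and B2m are shown because their signals varied in a like way over the libraries, as described below. The sequences come from RefSeq promoter windows of GRCm38.p6, which covered 8 of the 10 genes (all but Tap2 and Nlrc5). Capitals mark matches, on either strand, to CCAAT (core of the Y box), TGACG (core of the X2 box), GAAANNGAA or GAANNGAAA (spacings of an interferon response element), and GGGGATTCC (a kappa B element). Each is written along the strand of its gene, that between Psmb9 and Tap1 along the plus strand. The H2-D1 stretch (chr17:35262913-35263055, plus strand), the B2m stretch (chr2:122147538-122147648, plus strand) and the interval from Psmb9 to Tap1 (chr17:34187331-34187555) lie upstream of the annotated starts. For H2-K1 only the 30 bases from its kappa B match to its interferon element match are shown (chr17:34000429-34000458, minus strand).
H2-D1: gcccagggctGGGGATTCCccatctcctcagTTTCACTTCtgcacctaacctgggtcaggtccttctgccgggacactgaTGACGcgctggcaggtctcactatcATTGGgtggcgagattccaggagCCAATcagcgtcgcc
H2-K1: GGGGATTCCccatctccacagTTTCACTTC
B2m: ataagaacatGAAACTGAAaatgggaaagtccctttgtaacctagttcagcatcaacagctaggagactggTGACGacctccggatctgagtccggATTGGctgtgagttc
Psmb9 to Tap1: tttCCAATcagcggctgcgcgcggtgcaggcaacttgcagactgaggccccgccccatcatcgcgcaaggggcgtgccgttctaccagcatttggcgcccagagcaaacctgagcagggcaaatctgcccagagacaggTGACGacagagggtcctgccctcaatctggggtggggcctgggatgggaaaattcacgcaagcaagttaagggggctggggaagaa

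The same 30 bases of H2-D1 and H2-K1 were identical at 29 positions. GGGGATTCC was found in the windows of H2-D1 and H2-K1 and in 0.25% of all 32851 windows, while the other kappa B form searched, GGGATTTCC, was in none of the members and in 0.323% of windows. GAANNGAAA was in H2-D1 and H2-K1 and in 7.52% of windows, and GAAANNGAA was in B2m and in 8.56%. The X2 core was followed, after a spacer of 20 bases, by a Y box core on the opposite strand in H2-D1, H2-K1 and B2m and in 31 of all windows, or 0.0944%. TGACG alone was in 5 members and in 20.8% of windows, and CCAAT was in 6 members and in 37.4%. Both counts include Psmb9 and Tap1, which share the interval shown. TTCNNNGAA, a STAT site form also searched, was in Psmb8 alone and in 8.3% of windows. GAANNGAAA and that spacing of the X2 and Y cores were searched for after the sequences were read, and a match describes letters only.

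No member of the pathway passed the test between genotypes. With limma's adjusted p under 0.05, 0 of the 18 member probe sets were called, beside 0.0296% of all tested probe sets, and their adjusted p ran from 0.575 to 0.966. At an unadjusted p under 0.05 there was 1, Psmb10, beside 8.42% of all. The 5 knockout signals did not separate from both wild type signals at any of the 18, whereas the groups did not overlap at 13.6% of all tested probe sets. Without knockout libraries 2 and 3 there were 0 calls and 0 at the unadjusted threshold, beside 0.0185% and 5.64% of all, and still none without overlap, beside 20.3%.

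The 2 wild type libraries differed from each other at most of these probe sets. Wild type library 1 exceeded wild type library 2 at 17 of the 18 member probe sets, beside 55.8% of all tested, and by more than 1 log2 unit at 14, beside 6.31%. The median gap was 1.49 log2 units at the member probe sets and 0.09 over all. Wild type library 1 was the highest of the 7 at 13 of the 18, beside 23% of all, and its gap to wild type library 2 was larger than the difference between genotypes at 17 of 18, beside 59.9%. These counts describe 1 pair of libraries and carry no test. In RNA from whole cultures, fewer cells of a type and less RNA per cell cannot be told apart.

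**Figure D1:**
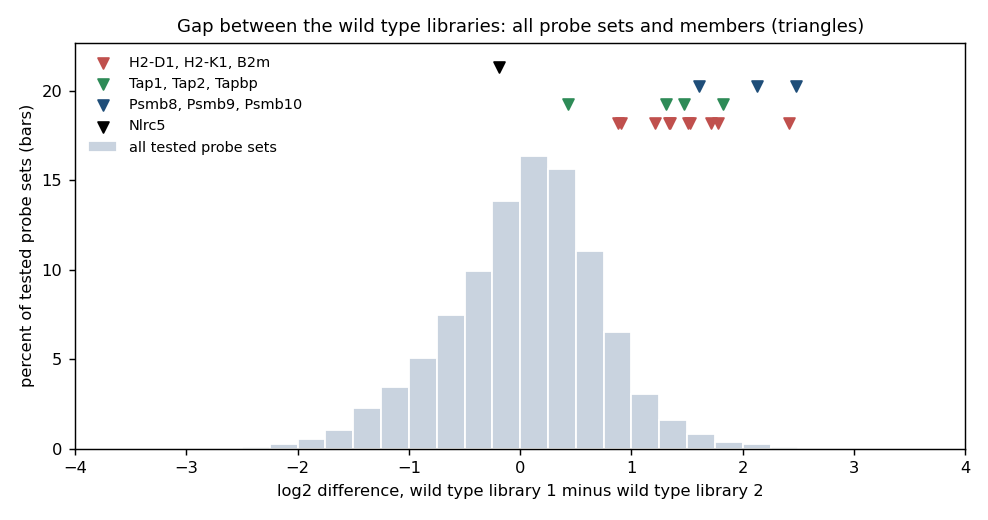
Gap between wild type libraries 1 and 2 (log2 difference, x axis) for all tested probe sets as bars (percent of probe sets, y axis) and for the 18 member probe sets as triangles coloured by role and set at arbitrary heights. The triangles lie right of 0 at 17 of 18 probe sets, with a median of 1.49 against 0.09 over all, and Nlrc5 lies left of 0.

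The heavy chains H2-K1 and H2-D1 present the peptide. H2-K1 (probe set 1425336_x_at) had 905.0, 2508.6, 2433.5, 1745.1 and 951.7 in knockout libraries 1 to 5, against 3404.6 and 978.5 in wild type libraries 1 and 2. The highest library was wild type and so was the third lowest, so that the groups overlapped across nearly the whole range. The means were 1709 ± 772 in knockout libraries (SD, n = 5) and 2192 ± 1716 in wild type libraries (SD, n = 2), and the log2 difference was -0.23 (95% interval -1.49 to 1.03, limma adjusted p = 0.886). It was -0.66 without knockout libraries 2 and 3 (adjusted p = 0.835), and 0.66 without wild type library 1.

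H2-D1 (1425545_x_at) had 409.2, 1121.6, 1169.5, 748.9 and 487.3 in the knockout libraries, against 1789.7 and 607.0 in the wild type libraries. Its order over the libraries was close to that of H2-K1: high in wild type library 1 and knockout libraries 2 and 3, low in knockout libraries 1 and 5. The means were 787 ± 351 in knockout libraries (SD, n = 5) and 1198 ± 836 in wild type libraries (SD, n = 2), with a log2 difference of -0.52 (95% interval -1.69 to 0.65, limma adjusted p = 0.713). The difference was -0.95 without knockout libraries 2 and 3 (adjusted p = 0.820), and 0.25 without wild type library 1. H2-K1 and H2-D1 are closely related in sequence, and most of their probe sets carry the suffix that Affymetrix gives to probes shared with other transcripts, so the split between the 2 genes is uncertain.

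B2m, the light chain of class I molecules, followed the same order. Its probe set 1452428_a_at had 1313.2, 4685.8, 4187.1, 2133.1 and 1714.1 in the knockout libraries, against 4586.1 and 1797.3 in the wild type libraries. Here knockout library 2 was slightly above wild type library 1, and knockout libraries 1 and 5 were below wild type library 2. The means were 2807 ± 1526 (SD, n = 5) and 3192 ± 1972 (SD, n = 2), and the log2 difference was -0.21 (95% interval -1.44 to 1.03, limma adjusted p = 0.893). It was -0.76 without knockout libraries 2 and 3 (adjusted p = 0.820), and 0.46 without wild type library 1.

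**Figure D2:**
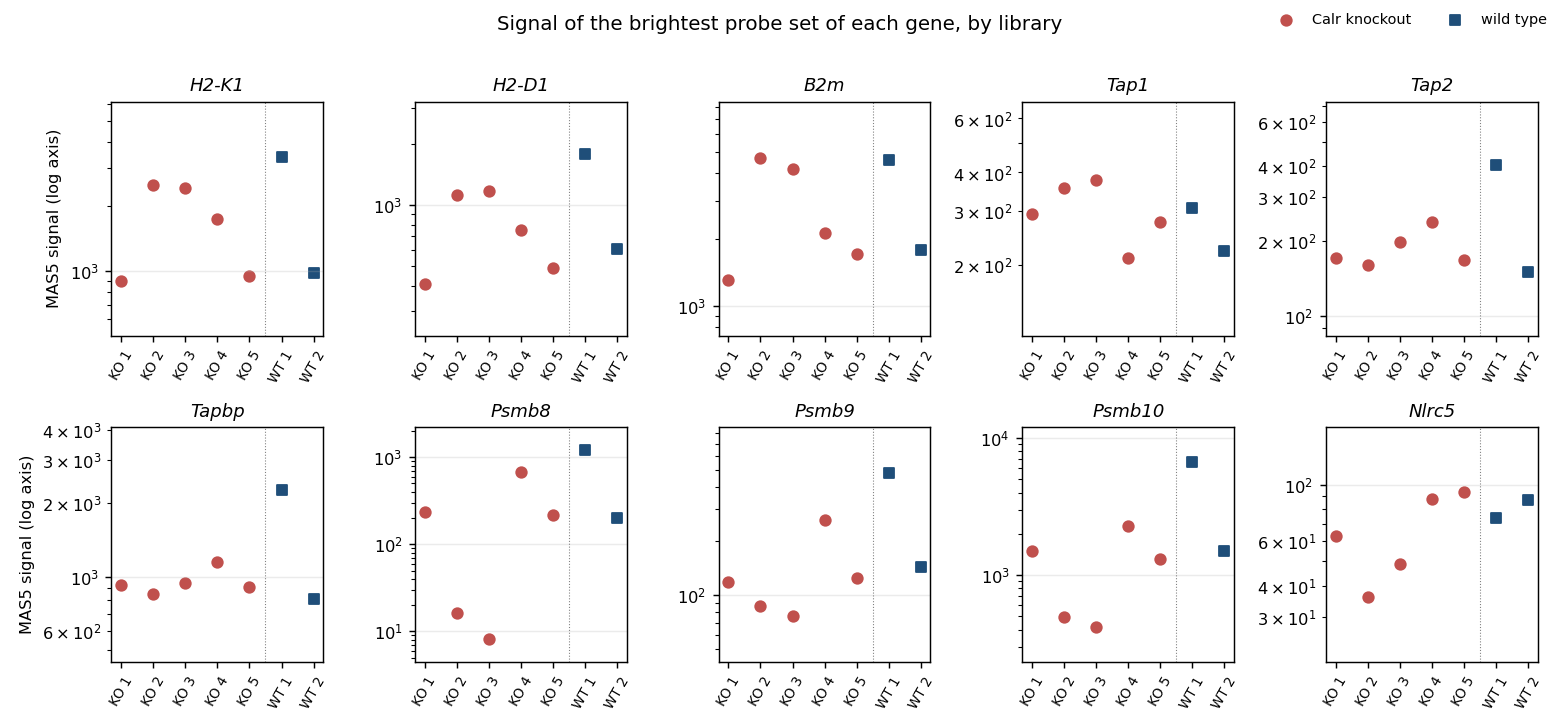
MAS5 signal (log y axis, with a scale of its own in each panel) of the brightest probe set of each of the 10 genes in knockout libraries 1 to 5 (red circles) and wild type libraries 1 and 2 (blue squares). Wild type library 1 is the highest point for H2-K1, H2-D1, Tap2, Tapbp, Psmb8, Psmb9 and Psmb10, and the groups overlap in all 10 panels.

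The other tested probe sets of these 3 genes gave the same picture. Over all 10 probe sets of H2-D1, H2-K1 and B2m, the log2 difference ran from -0.52 to -0.05, and from -0.95 to -0.30 without knockout libraries 2 and 3. Wild type library 1 exceeded wild type library 2 by 0.88 to 2.42 log2 units, the most at H2-K1 probe set 1427746_x_at, with 1090.6 and 187.8. Among knockout libraries, 2 and 3 were both above 1, 4 and 5 at 9 of the 10, and library 4 was above libraries 1 and 5 at all 10. The exception was H2-D1 probe set 1426324_at, whose knockout signals were 42.4, 185.2, 126.0, 136.4 and 92.7. The share of all tested probe sets with these orders was not counted. The 10 probe sets cover 3 genes and most may share probes, so they are not separate observations. The summed signal of 14 tested fibroblast and feeder markers was 2300, 9211, 8704, 3887 and 2381 in knockout libraries 1 to 5. In wild type libraries 1 and 2 it was 6253 and 5249. Among the knockout libraries this sum, too, was highest in 2 and 3 and next in 4. The smooth muscle actin Acta2 alone gave 1892.5 in knockout library 4, and 3802.3 and 3067.5 in wild type. In knockout libraries 1, 4 and 5, Dcn stayed at 14.5, 13.4 and 13.8, whereas Col1a1 had 71.1, 214.6 and 83.4. Twist2 was lowest in knockout libraries 2 and 3. The part of these markers in the class I values was not tested.

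The 5 H2-D1 probe sets under the filter differed from the tested ones. Probe set 1452544_x_at had 13.1, 177.9, 222.3, 13.1 and 23.1 in the knockout libraries, against 23.6 and 11.8 in the wild type libraries. Probe set 1427651_x_at had 3.9, 113.0, 110.2, 6.0 and 2.9 in the knockout libraries, against 3.6 and 11.5 in the wild type libraries. Probe set 1425614_x_at had 11.5, 137.6, 105.3, 5.3 and 10.9 in the knockout libraries, against 44.3 and 23.5 in the wild type libraries. All 3 were above 100 in knockout libraries 2 and 3 and below 45 in the other 5, wild type library 1 included. The remaining 2, 1450170_x_at and 1451934_at, stayed at or below 35.4 in all 7 libraries.

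**Figure D3:**
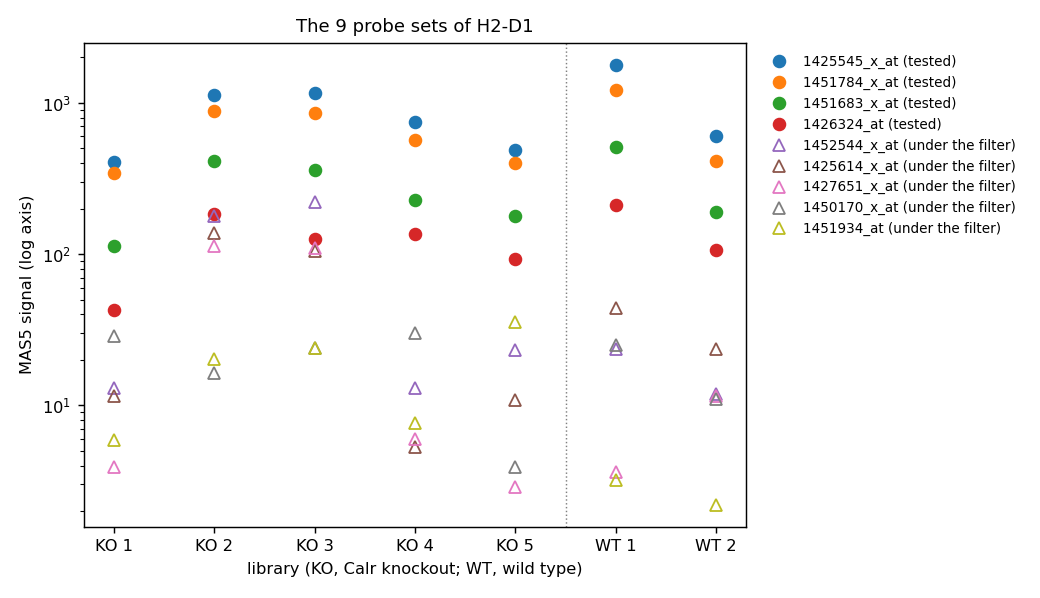
MAS5 signal (log y axis) of the 9 probe sets annotated to H2-D1 in each library, with tested probe sets as filled circles and those under the filter as open triangles. The tested probe sets are highest in knockout libraries 2 and 3 and in wild type library 1, whereas 3 of the open triangles are high in knockout libraries 2 and 3 alone. The exception is the tested 1426324_at, where knockout library 4 (136.4) is above knockout library 3 (126.0).

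The transporter subunits Tap1 and Tap2 differed in how they followed the wild type gap. Tap1 (1416016_at) had 292.6, 354.8, 378.4, 211.2 and 276.6 in the knockout libraries, against 306.5 and 222.3 in the wild type libraries. It was the flattest of the chromosome 17 members, with a wild type gap of 0.43 log2 units, and it was highest in knockout libraries 2 and 3. The means were 303 ± 66.3 in knockout libraries (SD, n = 5) and 264 ± 59.5 in wild type libraries (SD, n = 2), and the log2 difference was 0.17 (95% interval -0.48 to 0.83, limma adjusted p = 0.827), the only positive one among the 18. It was -0.02 without knockout libraries 2 and 3 (adjusted p = 0.992) and -0.0030 after quantile normalization, so its direction was not settled. The other 3 probe sets of Tap1 were under the filter, with no signal above 66.8.

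Tap2 (1453913_a_at) had 171.4, 160.4, 198.5, 239.2 and 168.1 in the knockout libraries, against 403.3 and 150.5 in the wild type libraries. All knockout libraries lay between the 2 wild type libraries, with knockout library 4 the highest of them. The log2 difference was -0.39 (95% interval -1.18 to 0.41, limma adjusted p = 0.686), and -0.35 without knockout libraries 2 and 3 (adjusted p = 0.878). Without wild type library 1 it was 0.27.

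Tapbp, or tapasin, bridges the transporter and the heavy chain. Its probe set 1421812_at had 924.7, 846.6, 940.0, 1150.0 and 906.8 in the knockout libraries, against 2276.8 and 805.7 in the wild type libraries. As for Tap2, the knockout libraries were tightly grouped above the lower and well below the higher wild type library. The log2 difference was -0.51 (95% interval -1.36 to 0.34, limma adjusted p = 0.632), -0.45 without knockout libraries 2 and 3 (adjusted p = 0.853), and 0.23 without wild type library 1. The second probe set, 1450378_at, had 146.5, 119.7, 127.2, 98.6 and 87.4 in the knockout libraries, against 344.7 and 82.9 in the wild type libraries, with a log2 difference of -0.53 (adjusted p = 0.658). Among the knockout libraries, Tap2 and Tapbp were highest in library 4, not in libraries 2 and 3, except at the second Tapbp probe set, which was highest in library 1.

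The immunoproteasome subunits replace the constitutive catalytic subunits of the proteasome and change which peptides it releases. With all 7 libraries the 3 subunits had the 3 largest differences between genotypes among the members, none of which passed the test, whereas without knockout libraries 2 and 3 the largest was that of H2-D1. Psmb8 (1422962_a_at), which replaces Psmb5, had 236.9, 16.3, 8.1, 678.0 and 218.7 in the knockout libraries, against 1222.6 and 202.3 in the wild type libraries. Wild type library 1 was highest and knockout library 4 next, while in knockout libraries 2 and 3 the signal stood at the 16.8 and 9.2 percentile of its array. The means were 232 ± 272 in knockout libraries (SD, n = 5) and 712 ± 721 in wild type libraries (SD, n = 2). The log2 difference was -1.97 (95% interval -4.65 to 0.72, limma adjusted p = 0.587), and -0.59 without knockout libraries 2 and 3 (adjusted p = 0.884). Without wild type library 1 it was -0.72. Its other probe set, 1444619_x_at, was under the filter and was also highest in wild type library 1, at 91.3, with knockout library 4 next at 48.5.

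Psmb9 (1450696_at), which replaces Psmb6, had 118.1, 86.6, 76.3, 260.6 and 124.9 in the knockout libraries, against 479.2 and 143.9 in the wild type libraries. Its order was that of Psmb8: wild type library 1, then knockout library 4, with knockout libraries 2 and 3 lowest. The log2 difference was -1.01 (95% interval -2.13 to 0.11, unadjusted p = 0.072, limma adjusted p = 0.575), and -0.69 without knockout libraries 2 and 3 (adjusted p = 0.834). It was -0.21 without wild type library 1 and -1.81 without wild type library 2.

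Psmb10 (1448632_at), which replaces Psmb7 and lies on chromosome 8 outside the MHC, had 1498.5, 496.1, 419.5, 2269.6 and 1313.3 in the knockout libraries, against 6659.6 and 1504.6 in the wild type libraries. The same 2 libraries were highest and the same 2 lowest, and only knockout library 4 was above wild type library 2. The means were 1199 ± 767 in knockout libraries (SD, n = 5) and 4082 ± 3645 in wild type libraries (SD, n = 2). The log2 difference was -1.66 (95% interval -3.30 to -0.02, unadjusted p = 0.0482, limma adjusted p = 0.575), the smallest p of the 18. It was -0.94 without knockout libraries 2 and 3 (adjusted p = 0.820), and -0.59 without wild type library 1.

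**Figure D4:**
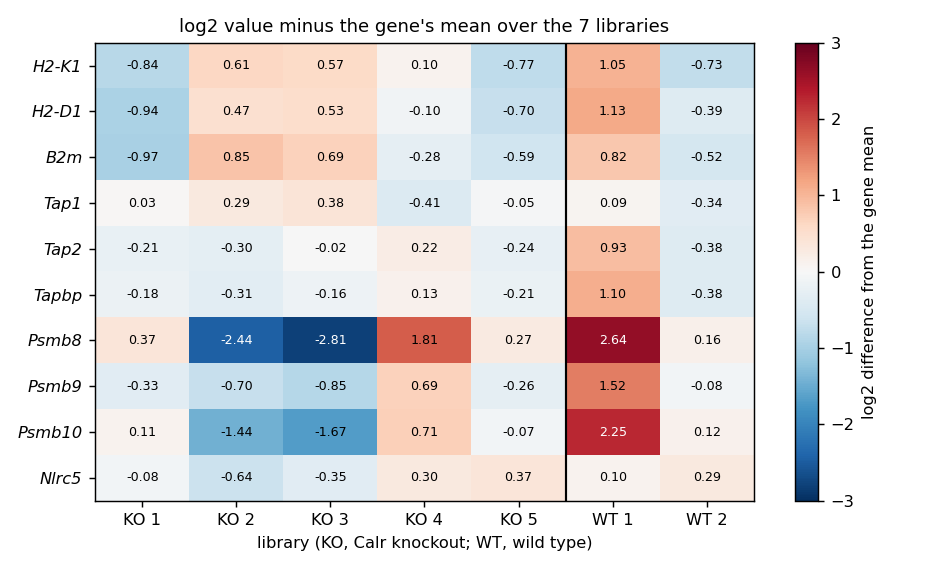
Log2 value of each of the 10 genes (rows, brightest probe set) in each library (columns) minus the gene's mean over the 7 libraries, with red above and blue below that mean. Psmb8 and Psmb10 run from -2.81 and -1.67 in knockout library 3 to 2.64 and 2.25 in wild type library 1, whereas H2-K1, H2-D1 and B2m are above their mean in knockout libraries 2 and 3.

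Each immunoproteasome subunit was set against the constitutive subunit it replaces, as the log2 difference of their signals per array relative to the wild type mean. For Psmb8 over Psmb5 this was -0.89, -3.14, -3.33, 0.67 and -0.58 in knockout libraries 1 to 5, against 0.99 and -0.99 in the wild type libraries. The mean difference was -1.45 (two-sided exact permutation p = 0.381, adjusted over 3 pairs 0.571), and knockout libraries 2 and 3 alone lay outside the wild type range; without them it was -0.26. For Psmb10 over Psmb7 the values were -1.29, -1.06, -1.09, -0.13 and -0.80 in the knockout libraries, against 0.76 and -0.76 in the wild type libraries. The knockout libraries were all below wild type library 1 and 4 were below wild type library 2, with a mean difference of -0.87 (exact permutation p = 0.0952, adjusted 0.286), which was -0.11 without wild type library 1. For Psmb9 over Psmb6 the mean difference was -0.12 (exact permutation p = 0.857, adjusted 0.857), and 0.52 without wild type library 1. With 21 ways to choose the wild type arrays, the smallest p possible was 0.0476 before adjustment. After adjustment over 3 pairs, no pair could fall under 0.05 unless all 3 reached that p, so the adjusted values could hardly show a difference.

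Nlrc5, a transcriptional activator of class I genes, did not share the pattern. Its probe set 1437176_at had 63.0, 36.1, 48.7, 87.9 and 93.5 in the knockout libraries, against 73.9 and 87.4 in the wild type libraries. It was the only member with wild type library 1 below wild type library 2, and knockout libraries 2 and 3 were lowest. The log2 difference was -0.28 (95% interval -1.02 to 0.47, limma adjusted p = 0.758), and 0.0018 without knockout libraries 2 and 3 (adjusted p = 0.999). Knockout libraries 2 and 3 were both below the other 5 at 4 member probe sets, those of Psmb8, Psmb9, Psmb10 and Nlrc5, beside 20.9% of all tested, and both above at Tap1 alone, beside 26.9%.

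**Figure D5:**
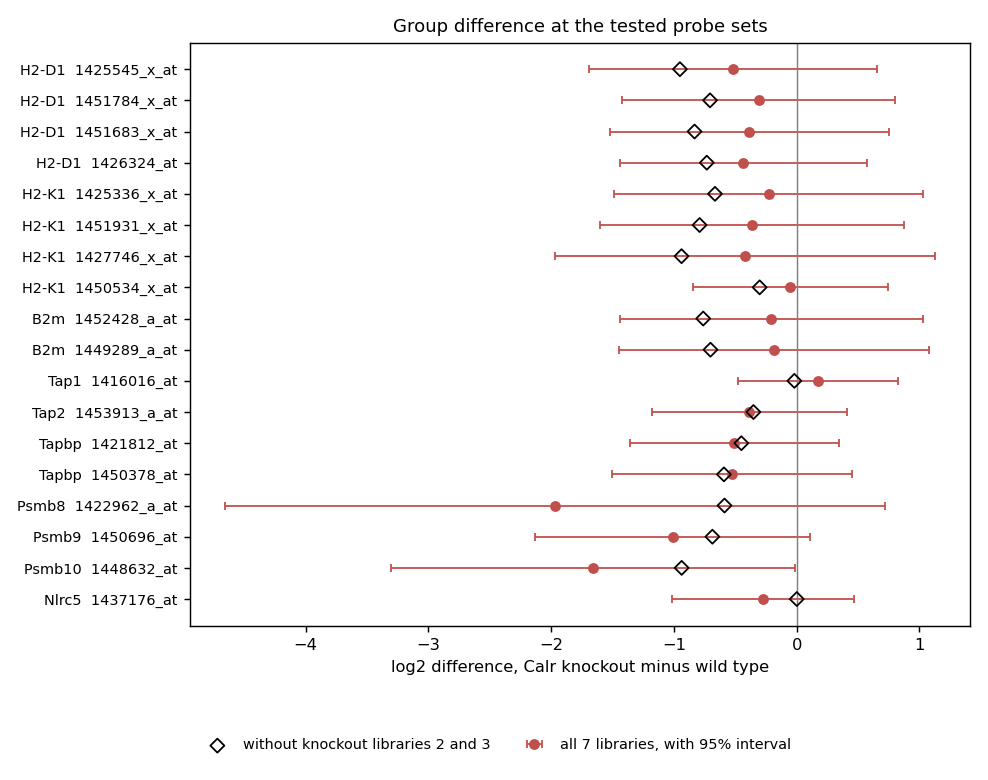
Log2 difference, knockout minus wild type, at the 18 tested probe sets (rows), with all 7 libraries as red circles with 95% intervals and without knockout libraries 2 and 3 as open diamonds. The interval includes 0 at all probe sets except Psmb10, whose upper bound is -0.02, and the difference is negative at 17 of 18 in both fits.

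The differences at the 18 probe sets were negative at 17, beside 44.1% of all tested, with a median of -0.39 against 0.07 over all. Without knockout libraries 2 and 3 they were negative at 17 with a median of -0.69, against 0.03 over all. Each of these rests on the same 2 wild type libraries, and without wild type library 1 the differences of H2-D1, H2-K1, B2m, Tap2 and Tapbp were positive.

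Over the 7 libraries, the genes whose log2 profile was most like the mean profile of the 10 members were Zfp775, Polr3c, Jph4, Crmp1 and Ilk, with root mean square differences of 0.115, 0.116, 0.116, 0.132 and 0.136 log2 units. All 5 were highest in wild type library 1 and next in knockout library 4. Polr3c, a subunit of RNA polymerase III, had 612.4, 446.8, 496.2, 872.4 and 531.0 in the knockout libraries, against 1428.8 and 585.0 in the wild type libraries. Ilk, an integrin-linked kinase, had 650.3, 605.8, 575.1, 1246.7 and 730.6 in the knockout libraries, against 1923.7 and 816.7 in the wild type libraries. The 5 genes lie on chromosomes 6, 3, 14, 5 and 7, none on that of the MHC. The mean profile they were set against averages unlike members. In knockout libraries 2 and 3 it was -0.36 and -0.37, where B2m was 0.85 and 0.69 and Psmb8 -2.44 and -2.81. Likeness to it therefore does not show likeness to the heavy chains or to the immunoproteasome subunits.

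Other genes of the pathway were taken with 1 probe set each and tested among 13120 genes, of which 2 were called, both lower (0.0152%); 0 members of any list were called, and 1057 genes (8.06%) had an unadjusted p under 0.05. The median difference over all 13120 was -0.00, and 6600 were negative. In the lists that follow, where 2 values stand in parentheses after a gene, the first is the log2 difference with all libraries and the other that without knockout libraries 2 and 3. Among partners of the loading complex, Pdia3, an oxidoreductase that binds calreticulin and tapasin, had 6936.4, 10308.6, 11504.4, 3105.1 and 6477.8 in the knockout libraries, against 3241.7 and 4163.7 in the wild type libraries. Knockout library 4 was below both wild type libraries and the other 4 were above them. This gave a log2 difference of 0.92 (SE 0.45, limma adjusted p = 0.589), and 0.50 without knockout libraries 2 and 3. Canx, the membrane-bound relative of calreticulin, had a log2 difference of 0.18 (adjusted p = 0.735), and 0.07 without knockout libraries 2 and 3. Of 12 peptide trimming and loading helpers, 6 were higher and 6 lower by value with a median of -0.13 (-0.27 without knockout libraries 2 and 3), and the groups did not overlap for the aminopeptidases Npepps (-0.45, -0.35) and Lap3 (-0.58, -0.30), both lower, beside 13.8% of all genes in either direction, 6.41% higher and 7.44% lower. Erap1, which trims peptides in the endoplasmic reticulum, did overlap (-0.46, -0.43).

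The constitutive subunits, proteasome activators and assembly factors had negative differences in 10 of 11 genes, with a median of -0.51, which was -0.20 without knockout libraries 2 and 3. None passed the test, and 1 (Psmb6) had an unadjusted p under 0.05. Psmb6 had 8560.0, 4600.3, 4035.5, 10681.2 and 7439.2 in the knockout libraries, against 13699.2 and 10959.8 in the wild type libraries. All knockout libraries were below both wild type libraries, and the log2 difference was -0.89 (SE 0.38, limma adjusted p = 0.589), and -0.48 without knockout libraries 2 and 3. Psmg1, an assembly chaperone, also did not overlap (-0.64, -0.29), while Psmb5 (-0.51, -0.32) and Psmb7 (-0.79, -0.20) overlapped. Of the 11 genes, 2 were lower without overlap and 0 higher, beside 7.44% and 6.41% of all genes.

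Among 13 transcription factors that bind class I promoters, 8 had negative differences and the median was -0.24 (0.04 without knockout libraries 2 and 3). Irf1, which binds interferon response elements, had 1690.2, 872.5, 1022.6, 2596.4 and 1532.1 in the knockout libraries, against 3533.5 and 1701.0 in the wild type libraries. Wild type library 1 was highest, knockout library 4 next and knockout libraries 2 and 3 lowest, the order of the immunoproteasome subunits. Other listed genes, such as the trimming helper Thop1, the proteasome activator Psme1 and the factor Irf8, had this order too. The share of all tested genes with it was not counted, and a link between Irf1 and these subunits was not tested. The log2 difference of Irf1 was -0.77 (SE 0.45, limma adjusted p = 0.591), and -0.37 without knockout libraries 2 and 3. Of the regulatory factor X subunits, Rfxap was lower without overlap (-0.85, -0.36) and Rfx5 higher without overlap (0.20, 0.26). That made 1 of 13 in each direction, beside 7.44% lower and 6.41% higher among all genes. Nfyc, a subunit of the factor that binds CCAAT, did overlap (-0.77, -0.21).

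Of 11 interferon receptor and signalling genes, 8 had positive differences, with a median of 0.34 that was 0.05 without knockout libraries 2 and 3. Ifngr2, a chain of the interferon gamma receptor, was lower without overlap (-0.54, -0.38), and the receptor kinase Jak2 was higher without overlap (0.47, 0.45). That made 1 of 11 in each direction, beside 7.44% lower and 6.41% higher among all genes. The groups overlapped for the signalling inhibitors Socs3 (-0.27, -0.18) and Ptpn2 (0.34, 0.45).

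Psmb9, Tap1, Psmb8 and Tap2 are neighbours, in that order, on chromosome 17. Of 15 measured genes beside them or beside Tapbp in the MHC region, 12 had negative differences, with a median of -0.30 (-0.37 without knockout libraries 2 and 3), and 5 were lower without overlap, beside 7.44% of all genes. These included Wdr46 (-0.91, -0.46), Pfdn6 (-0.81, -0.50), a subunit of the prefoldin chaperone, and Zbtb22 (-0.64, -0.38), all with a limma adjusted p of 0.589. Pfdn6 had 7408.8, 4916.5, 4013.6, 9321.9 and 6529.5 in the knockout libraries, against 11884.9 and 9924.6 in the wild type libraries. The ribosomal protein gene Rps18 of the same region had -0.13 (adjusted p = 0.800), and -0.08 without knockout libraries 2 and 3.

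Among 10 other class I and class I-like chains, 5 had positive and 5 negative differences with a median of 0.10 (-0.17 without knockout libraries 2 and 3). Fcgrt, the heavy chain of the neonatal Fc receptor, was higher in all knockout libraries, with 411.7, 505.1, 449.2, 297.9 and 360.5 against 242.7 and 274.8 in the wild type libraries. Its log2 difference was 0.59 (SE 0.27, limma adjusted p = 0.589), and 0.43 without knockout libraries 2 and 3. Fcgrt was the only 1 of the 10 without overlap, beside 13.8% of all genes. The lipid-presenting Cd1d1 changed sign without these 2 libraries (0.25, -0.15). Of 7 ligands of natural killer receptors and checkpoints, Cd24a was lower without overlap (-0.97, -0.74). Its signals were 2244.6, 1707.2, 1677.3, 2951.4 and 2415.3 in the knockout libraries against 4778.9 and 3752.0 in the wild type libraries. The PD-1 ligand Pdcd1lg2 was higher without overlap (0.35, 0.29). That made 1 of 7 in each direction, beside 7.44% lower and 6.41% higher among all genes. The list's median was 0.35, and 0.05 without knockout libraries 2 and 3, and the adhesion molecule Nectin2 overlapped (0.74, 0.12).

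Markers of other cells were compared in the same way. The 9 measured MHC class II and leukocyte markers had a median of -0.00 (-0.08 without knockout libraries 2 and 3). No gene of the 9 was free of overlap, as 13.8% of all genes were. Among the 9 were Cd68 (0.33, -0.11) and the class II chain H2-Eb1 (0.07, 0.58). The 14 fibroblast and feeder markers had a median of 0.02, and -0.61 without knockout libraries 2 and 3. Acta2, a smooth muscle actin, was lower without overlap (-1.10, -1.51), 1 of 14, beside 7.44% of all genes. The collagen gene Col1a2 changed sign without these 2 libraries (0.47, -0.67): it had 1518.8 and 1442.8 in knockout libraries 2 and 3, 236.6 or less in the other knockout libraries, and 374.9 and 250.5 in wild type. The 15 extraembryonic markers had a median of -0.44 (-0.37 without knockout libraries 2 and 3). Of these, 2 were higher without overlap, beside 6.41% of all genes, and 3 lower, beside 7.44%. Cdx2, a trophoblast factor, had 56.1, 52.7, 49.3, 12 and 72.4 in the knockout libraries against 267.4 and 188.6 in the wild type libraries, with a log2 difference of -1.92 (SE 0.40, limma adjusted p = 0.589), and -2.01 without knockout libraries 2 and 3. The endoderm factors Sox7 (-1.31, -1.25) and Sox17 (-1.20, -1.15) were also lower without overlap, and the keratin Krt7 (1.03, 0.99) and the trophoblast factor Tfap2c (0.76, 0.69) were the 2 higher ones. The keratins Krt8 (0.08, 0.15) and Krt18 (0.30, 0.25) overlapped. The 13 pluripotency markers had a median of 0.04 (0.21 without knockout libraries 2 and 3). Fgf4 was higher without overlap (0.67, 0.59), 1 of 13, beside 6.41% of all genes. Zfp42 (-0.00, 0.26) and Dppa5a (-0.07, -0.02) overlapped.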

How the data were processed

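Per the submitters' processing notes the authors used MAS5 (version not given in the sources used here), and each deposited value is the intensity of 1 probe set on 1 array. The trimmed mean was 500.0 on every array and array medians differed by 1.35 times, so the arrays were not normalized again. Values are given as log2(signal + 20.2), 20.2 being the 20th percentile of all values, which understates changes of dim probe sets. Probe sets whose mean on this scale exceeded the 40th percentile were tested, apart from 64 controls. The comparison of knockout with wild type used limma 3.58.1 under R 4.3.3 (lmFit, eBayes with trend, two-sided, Benjamini-Hochberg adjusted p under 0.05) over all tested probe sets, or over 13120 genes with the brightest single-symbol probe set each. The fits were tested on simulated data.

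Of all probe sets, 34958 had 1 symbol, 932 several and 9211 none, and 34754 were matched to RefSeq genes of GRCm38.p6. The array files name no build, so coordinates are given only for RefSeq promoter windows.

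All members were named. From each list, up to 3 genes with the largest differences among those without overlap and the 2 brightest were named, and Psmb5, Psmb6, Psmb7, Pdia3, Canx, Calr and Irf1 always; 1 further gene of this rule is not reported here. Likeness used the 5 genes closest to the members' mean profile. Dcn, Pou5f1, Krt7, Tfap2c, Erap1, Thop1, Psme1, Irf8 and the sequence patterns noted above were added once their values were known. The members and lists were chosen with earlier results of these data known. The replicate numbers come from the titles, which do not say that equal numbers share a culture or day. Figures were drawn with matplotlib 3.10.9.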

Additional observations from a re-analysis of the deposited data

Results flagged for a closer look

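Some H2-D1 probe sets that failed the filter on dim signals stood above both wild type signals in knockout libraries 2 and 3. Probe set 1452544_x_at had 177.9 and 222.3 in knockout libraries 2 and 3, against 23.6 and 11.8 in wild type libraries 1 and 2. Probe set 1425614_x_at had 137.6 and 105.3 in knockout libraries 2 and 3, against 44.3 and 23.5 in the wild type libraries. These signals lay above the median of their own array, except the 105.3, which stood at the 46.4 percentile. The highest, that of 1452544_x_at in knockout library 3, stood at the 61.3 percentile. The filter kept these probe sets out of the main comparison. No cause was tested.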

How the results depend on the processing

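Of the 18 member probe sets 0 were called by limma under every alternative: quantile normalization, median centring, other filters and pseudocounts (1 and 64), no trend, array weights, the replicate block, 1 probe set per gene, and leaving out libraries. The lowest adjusted p of a named member was 0.063, Psmb8 under the replicate block (log2 difference -2.44). Differences and calls under that block rest on libraries 1 and 2 of each group. Knockout libraries 3, 4 and 5 have numbers of their own and do not enter them, so they are not like those of the other fits. Over all probe sets, 8 were called, against 5 without a filter, 4 with a filter at the 60th percentile, 5 without knockout libraries 2 and 3, 2 with 1 probe set per gene, 15 with the replicate number as a block, and 0 to 7 when 1 library was left out. Only numbers 1 and 2 occur in both groups, and their deviations correlated at 0.11 and -0.01. With only 2 wild type arrays, these values cannot tell whether equal numbers share a culture or day, which the titles do not say. Tap1 changed sign after quantile normalization (-0.0030) and without knockout libraries 2 and 3 (-0.0179), and Nlrc5 without them (0.0018). The sign of Tap1 also changed without wild type library 2 (-0.0426), and that of B2m without knockout library 1 (0.0193). When 1 library was left out, the log2 difference ran from -1.28 to 0.25 for H2-D1, -1.12 to 0.66 for H2-K1, -0.88 to 0.46 for B2m, -0.0426 to 0.39 for Tap1, -1.04 to 0.27 for Tap2, -1.25 to 0.23 for Tapbp and -0.76 to 0.52 for Psmb9 over Psmb6. Psmb8 stayed between -3.21 and -0.72, Psmb9 between -1.81 and -0.21, and Psmb10 between -2.72 and -0.59, the bounds being those without wild type libraries 2 and 1. Without knockout libraries 2 and 3, list medians were -0.17 for other class I chains, -0.27 for peptide trimming and loading helpers, -0.20 for constitutive proteasome genes, 0.04 for transcription factors, 0.05 for interferon signalling, 0.05 for natural killer ligands, -0.61 for fibroblast markers and -0.08 for class II and leukocyte markers. With the median over a gene's tested probe sets, that of the helpers was 0.02. The cause of these shifts was not tested. A fit with 1 wild type array assumes that it varies like the knockout arrays. With 2 wild type arrays, wild type library 1 decides the sign at 5 of the 10 genes, and the deposited table holds no detection calls to set signal against background.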
